A study of Homo sapiens with 4 samples.

Results

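Long intergenic noncoding RNAs are transcripts that lie mostly between protein-coding genes and carry no recognised long open reading frame. Those without a known role or a named partner are given a LINC symbol with a serial number. Of the 36601 genes counted, 2077 had such a symbol, and the 229 described here were chosen by their total of at least 200 UMIs over all cell barcodes of both libraries. A UMI, or unique molecular identifier, marks 1 captured RNA molecule. Of the other LINC genes, 873 had at least 1 UMI but under 200, and 975 had none. The total over all conditions chose the genes, so a gene that was high in 1 condition alone could pass through it. At the level of their lowest condition, 193 of the 229 would still have reached the limit and 36 would not. Just inside the limit were LINC02367 and LINC01301 with 204 UMIs each and LINC02363 with 202, and just outside were LINC00299 with 195, LINC02384 with 187 and LINC01315 with 186.

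The cells were microglia-like cells made from 1 human embryonic stem cell line, H9, from monocyte-like cells collected on day 25 and matured for 7 days. SemaLPS cultures received semagacestat, a small-molecule inhibitor of γ-secretase, at 2 µM for 22 h, with 200 ng/mL lipopolysaccharide (LPS) for the last 6 h. LPS cultures received DMSO and LPS, Sema cultures received semagacestat and PBS, and Ctrl cultures received DMSO and PBS, with 3 cultures per condition. All cultures were detached in the presence of 5 µM actinomycin D, which blocks transcription, and each carried its own hashtag antibody. About 2000 cells per culture were pooled and divided into 2 libraries of 3′ single-cell RNA.

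After filtering, 14931 cells were kept, between 1062 and 1650 per culture, with 30302342 to 51297061 UMIs per culture. Median UMIs per cell were 29976 to 31410 in the 6 cultures with LPS and 27355 to 28206.5 in the 6 without. The libraries shared 91 barcode sequences, which 55 kept cells carried. The 8 macrophage and microglia markers summed to between 5538 and 6172 CPM in every culture. CPM is the count scaled to 1000000 UMIs of the culture, with TMM scaling between cultures unless said otherwise. Pluripotent, mast cell, erythroid, granulocyte precursor and megakaryocyte markers summed to at most 1.25 CPM in any culture, and neural markers to at most 9.97 CPM. The 4 endothelial markers, led by PECAM1, which macrophages also express, summed to 35.1 to 52.2 CPM with LPS and to 68.1 to 93.5 CPM without it. Cells with at least 3 of 8 markers of division were 15.1 to 23.3% of a culture with LPS and 22.6 to 34.2% without. The part of these shifts in the results below was not tested. In these sums per culture, fewer cells with an RNA and less of it per cell cannot be told apart.

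LPS is sensed by TLR4, which signals through NF-κB, AP-1 and interferon regulatory factors to switch on cytokine genes in macrophages and microglia. Many noncoding RNAs are transcribed beside such genes, often from a shared regulatory region, and some act on the gene next to them. γ-Secretase is the protease that cuts Notch receptors and the amyloid precursor protein within the membrane. For most of the 229 LINC genes no function is established.

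The LINC genes made up a small part of the RNA. Together they held 880780 UMIs, 0.0978% of all UMIs and 97.6% of those of every LINC gene. The median gene had 816 UMIs, 104 had 1000 or more, and the 5 most abundant held 37.4% of the total. Their summed level was 875 ± 15.1 CPM in SemaLPS, 885 ± 19.5 CPM in LPS, 1010 ± 22.4 CPM in Sema and 1011 ± 24.1 CPM in Ctrl cultures (SD, n = 3 each). The 6 cultures with LPS lay between 866 and 906 CPM and the 6 without lay between 984 and 1039 CPM, with no overlap. Without scaling between cultures, the ranges were 797 to 862 CPM with LPS and 1059 to 1116 CPM without. Per kept cell, the LINC genes gave 25.8 ± 0.948 UMIs in SemaLPS, 26.0 ± 0.527 in LPS, 31.3 ± 0.80 in Sema and 31.4 ± 0.335 in Ctrl cultures (SD, n = 3 each).

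More LINC genes fell than rose with LPS. Of the 228 that passed the filter on low counts, 38 rose and 90 fell in LPS against Ctrl cultures, by the quasi-likelihood test of edgeR at a Benjamini-Hochberg adjusted p of 0.05 over 15065 genes. Over all genes tested, 59.3% were called, 30.3% higher and 29% lower, and among the LINC genes 16.7% were higher and 39.5% lower. The median log2 fold change was -0.37 for the LINC genes and -0.02 for all genes. By more than 2-fold, 21 rose and 45 fell, where 6.31% of all genes rose and 8.83% fell by as much. The cultures of both conditions did not overlap in 137 of the 228 genes (60.1%), where the share of all genes was 63.5%. LINC01301 did not pass the filter. The 36 genes that would have missed the limit at their lowest condition gave 7 rises and 18 falls among the 35 tested, and the other 193 gave 31 rises and 72 falls. Whether the cultures came from separate differentiations is not said in the sources used here, so the p-values rest on the spread between cultures of 1 line, which may be technical.

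**Figure D1:**
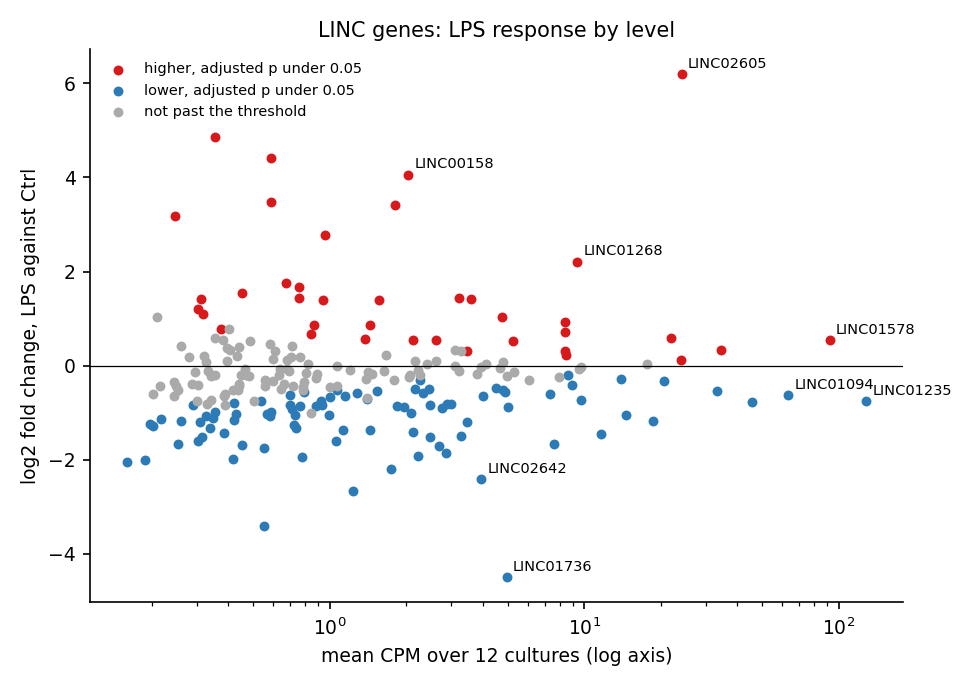
Log2 fold change in LPS against Ctrl cultures (vertical axis) by mean CPM over the 12 cultures (horizontal, log axis), 1 point per LINC gene tested (n = 228). Red points rose (38) and blue points fell (90) at an adjusted p under 0.05, and LINC02605 stands highest at 6.19.

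LINC02605, listed in RefSeq with the synonym IL-7-AS, rose most. It is a lincRNA in GENCODE, on the plus strand of chromosome 8 from 78837529 to 78840522 (GRCh38), and starts 32.0 kb from the start of IL7, which is read from the opposite strand. It had 54.0, 51.8 and 40.5 CPM in SemaLPS, 51.6, 47.9 and 39.8 in LPS, 0.600, 0.903 and 1.02 in Sema, and 0.720, 0.491 and 0.685 in Ctrl cultures. Every culture with LPS stood far above every culture without it. The log2 fold change was 6.19 ± 0.19 (SE, adjusted p = 8.66e-12) in LPS against Ctrl, or 72.9-fold. It was 5.39 with cells assigned to cultures by a ratio between their highest hashtags. Its level in Ctrl was 1.36% of that in LPS cultures. Of 5264 genes with at least 20 CPM in LPS cultures it had the third-lowest such share, and the lowest, of CCL8, was 1.31%. All cultures were pooled before capture, and the part of RNA carried over between cells in this level was not tested. IL7 encodes a growth factor for lymphocytes. It had 2.47, 2.45 and 2.64 CPM in LPS, against 0.210, 0.154 and 0.119 CPM in Ctrl cultures, a log2 fold change of 3.94 ± 0.27.

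LINC02694, LINC00158, LINC01215 and LINC02541 followed among the rises of genes with at least 1 CPM in the higher group. LINC02694, LINC00158 and LINC01215 reached the 200 UMI limit only through the conditions with LPS, so that they had to be high there to be described at all. LINC02694, on the plus strand of chromosome 15 from 38628005 to 39180499, is annotated as protein coding in GENCODE v29 and as a lncRNA in RefSeq. It had 1.19, 1.08 and 1.12 CPM in LPS, against 0.0900, 0 and 0.0595 CPM in Ctrl cultures, which is 42, 37 and 42 UMIs against 3, 0 and 2. Its log2 fold change was 4.40 ± 0.40, and it was 5.32 in library 1 alone, 3.78 in library 2 alone and 5.08 without culture 1 of Ctrl. Its nearest coding gene, RASGRP1, an exchange factor that activates RAS, lies 62.4 kb away on the opposite strand and rose by 3.97 ± 0.10. LINC00158, on the minus strand of chromosome 21 from 25385820 to 25431701, had 3.84, 4.32 and 3.09 CPM in LPS, against 0.240, 0.246 and 0.179 CPM in Ctrl cultures. It rose by 4.06 ± 0.24 on the log2 scale, and no coding gene lies within 100 kb. LINC01215, on the plus strand of chromosome 3 from 108125821 to 108138610, rose by 3.49 ± 0.40, with 40, 36 and 36 UMIs in LPS against 5, 2 and 2 in Ctrl cultures. It rose by 4.75 in library 1 alone and by 2.87 with assignment by ratio. IFT57, which encodes a protein of the transport machinery of cilia and lies 22.2 kb away, rose by 1.10 ± 0.06. For these genes the LPS and Ctrl cultures did not overlap.

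The promoters of 3 of these genes are shown because they hold matches to loose patterns for AP-1 or NF-κB, beside that of the gene that fell most. They were picked for their matches: the promoter of LINC02541, which also rose, held none of the motifs searched, while that of LINC02642, which fell, held an NF-κB and an interferon-response match and that of LINC01504, which fell, an AP-1 match. Each sequence runs from 250 bases before to 50 bases after the RefSeq start, 5′ to 3′ on the gene's strand (GRCh38.p14). The RefSeq start of LINC02694 lies inside the span that GENCODE gives this gene. The windows are chr15:38696348-38696647 (plus) for LINC02694, chr21:25431652-25431951 (minus) for LINC00158, chr3:108125571-108125870 (plus) for LINC01215 and chr1:230002467-230002766 (plus) for LINC01736. Capitals mark matches to the AP-1 motif TGANTCA, which reads alike on both strands, and to the NF-κB motif on either strand, which is GGG and TTTCC parted by any 2 bases. N is any base, so TGATTCA counts as an AP-1 match beside TGACTCA and TGAGTCA. Stricter patterns were not searched.
LINC02694: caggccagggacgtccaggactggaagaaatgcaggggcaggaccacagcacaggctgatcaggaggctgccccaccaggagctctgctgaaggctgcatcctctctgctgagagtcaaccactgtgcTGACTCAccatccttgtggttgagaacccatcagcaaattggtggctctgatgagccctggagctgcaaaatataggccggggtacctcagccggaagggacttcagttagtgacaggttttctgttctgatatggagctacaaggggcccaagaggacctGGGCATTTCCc
LINC00158: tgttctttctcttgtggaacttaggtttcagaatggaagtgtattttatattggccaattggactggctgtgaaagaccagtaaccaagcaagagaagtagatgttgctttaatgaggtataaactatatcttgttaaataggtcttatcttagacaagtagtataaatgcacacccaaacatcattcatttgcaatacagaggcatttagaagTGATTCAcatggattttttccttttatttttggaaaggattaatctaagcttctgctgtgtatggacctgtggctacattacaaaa
LINC01215: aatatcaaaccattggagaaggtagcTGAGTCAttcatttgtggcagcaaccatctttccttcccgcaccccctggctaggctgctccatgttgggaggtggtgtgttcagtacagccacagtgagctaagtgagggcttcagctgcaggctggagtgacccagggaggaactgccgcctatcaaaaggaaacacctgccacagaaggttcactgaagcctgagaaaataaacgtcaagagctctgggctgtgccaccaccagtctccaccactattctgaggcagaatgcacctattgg
LINC01736: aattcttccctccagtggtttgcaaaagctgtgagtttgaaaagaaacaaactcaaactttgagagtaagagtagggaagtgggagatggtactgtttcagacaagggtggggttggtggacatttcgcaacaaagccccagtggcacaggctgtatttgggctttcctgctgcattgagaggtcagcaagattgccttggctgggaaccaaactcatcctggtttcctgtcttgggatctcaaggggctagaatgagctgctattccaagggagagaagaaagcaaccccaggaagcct
In LINC02694 the AP-1 match TGACTCA starts 122 bases before the start site and the NF-κB match GGGCATTTCC lies within the first 50 bases of the transcript. The AP-1 match starts 36 bases before the start of LINC00158 (TGATTCA) and 224 bases before that of LINC01215 (TGAGTCA).

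RefSeq promoters were found for 149 of the 229 genes. The AP-1 motif, with any base at its N, occurred in 24 of them (16.1%), against 7.71% of 35116 promoters of all genes, and the NF-κB motif in 5 (3.36%), against 1.91%. The 35116 promoters were not limited to noncoding genes or to genes found in these cells. These differences thus cannot be called particular to LINC genes. The interferon-response motif, GAAA and GAAA parted by any 2 bases, occurred in 6 (4.03%), against 3.57%, and the motif GAGGAAG of PU.1, a factor that directs macrophage development, in 21 (14.1%), against 13.6%. Each motif was searched on both strands, and matches to different motifs may overlap. Of 13 promoters of genes that rose over 2-fold, 5 held the AP-1 motif: those of LINC02694, LINC00158, LINC01215, LINC02733 and LINC01888. All of these but LINC01888 reached the 200 UMI limit only through the conditions where they were high. The motif was in 6 of 34 promoters of genes that fell over 2-fold and in 7 of 68 of genes that did not pass the test. In the same 13 promoters of rises the NF-κB motif occurred in 1, the interferon-response motif in 0 and the PU.1 motif in 2. In the 34 promoters of falls over 2-fold they occurred in 1, 2 and 3. In the 68 of genes that did not pass the test they occurred in 0, 2 and 11. Genes that passed but changed by under 2-fold are in none of these groups. With no limit on the fold, the AP-1 motif was in 6 of 22 promoters of rises and in 11 of 59 of falls. The NF-κB motif was then in 2 and 3, the interferon-response motif in 1 and 3, and the PU.1 motif in 4 and 6. A match is a stretch of letters and does not show that a factor binds there.

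A second group of rises reached lower folds. LINC02541 and LINC01268 both lie on the minus strand of chromosome 6 and flank, on opposite sides, the gene MARCKS, which encodes a membrane-bound regulator of actin. LINC01268, named MROCKI in a newer gene list, ends 4.54 kb from MARCKS on the opposite strand, and is described in human macrophages as a regulator of MARCKS and inflammation. It had 17.2, 14.7 and 12.99 CPM in LPS, against 4.56, 2.92 and 2.20 CPM in Ctrl cultures, a log2 fold change of 2.21 ± 0.19 (adjusted p = 2.74e-07). MARCKS had 2036, 2002 and 1893 CPM in LPS, against 650, 654 and 633 CPM in Ctrl cultures, and rose by 1.62 ± 0.04. LINC02541, which starts 207 kb before MARCKS, rose by 3.40 ± 0.19, with 3.23 ± 0.203 CPM in LPS and 0.301 ± 0.0290 CPM in Ctrl cultures (SD, n = 3 each), and by 4.05 in library 2 alone. LINC01931 rose by 2.79 ± 0.31, LINC00884 by 1.76 ± 0.25, LINC01191 by 1.66 ± 0.36, LINC01283 by 1.44 ± 0.12 and LINC01588 by 1.42 ± 0.13. LINC00528 lies 2.55 kb from BID, which encodes a protein that promotes apoptosis. It rose by 1.43 ± 0.24, and BID rose by 1.74 ± 0.06 with 343, 290 and 339 CPM in LPS, against 96.8, 94.0 and 101 CPM in Ctrl cultures.

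**Figure D2:**
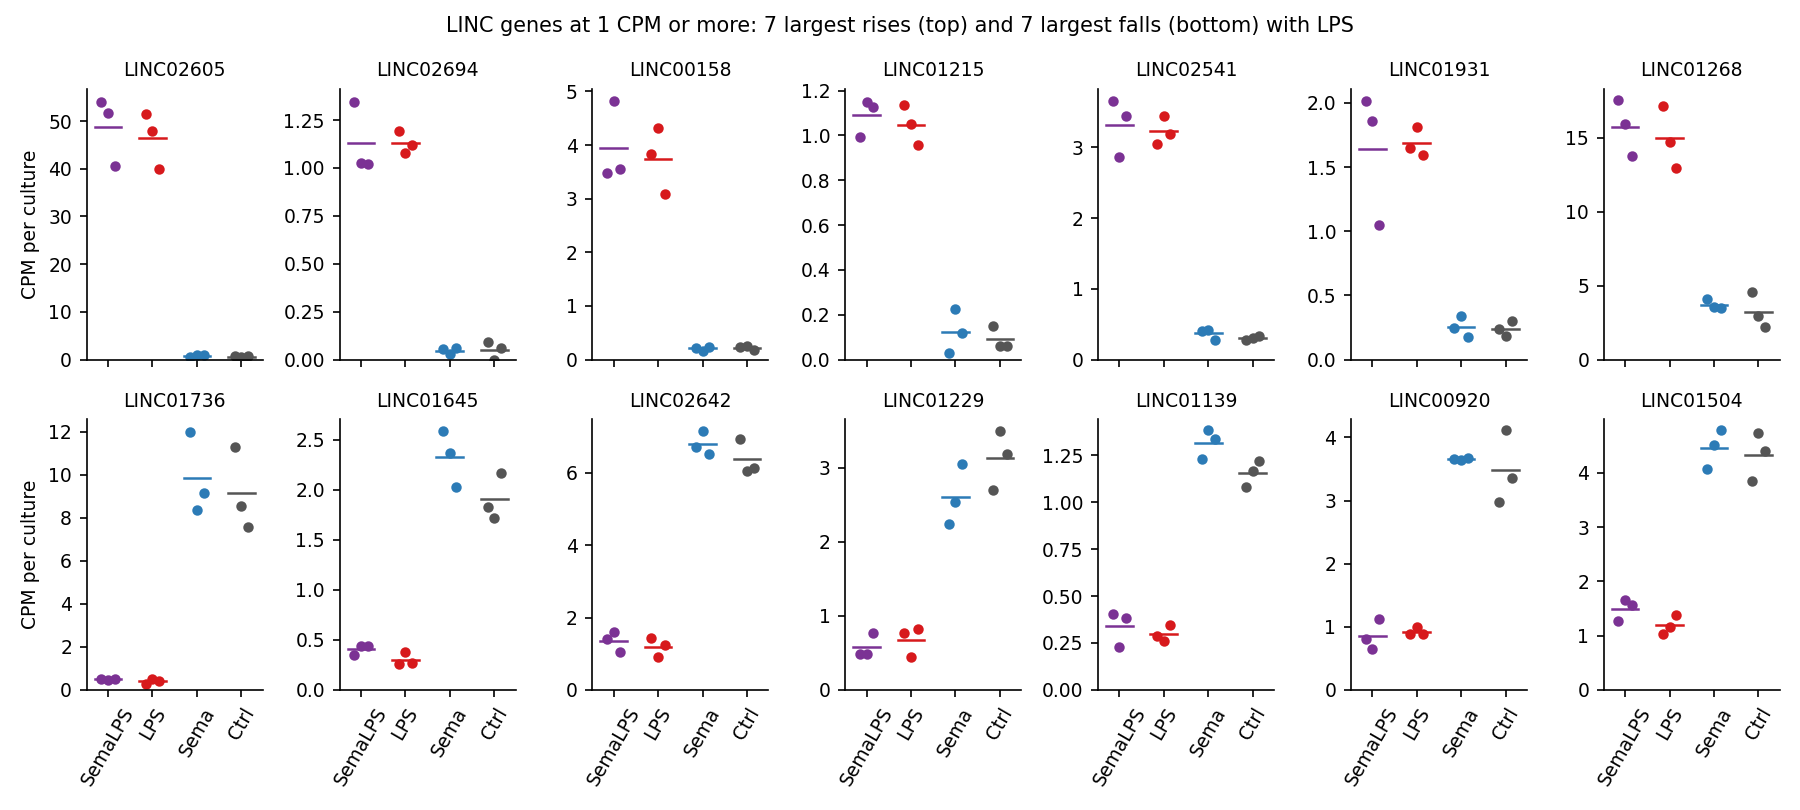
CPM per culture (vertical axes from 0) of the 7 largest rises (top) and 7 largest falls (bottom) in LPS against Ctrl cultures among LINC genes with at least 1 CPM in the higher group. Points are cultures, lines are means of 3, and the SemaLPS and LPS cultures lie apart from the Sema and Ctrl cultures in all 14 genes.

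LINC01736 fell most. It is a lincRNA of 654 exonic bases on the plus strand of chromosome 1 from 230002730 to 230007162, 50.8 kb upstream of GALNT2, which encodes an enzyme that starts O-linked sugar chains. It had 0.511, 0.439 and 0.523 CPM in SemaLPS, 0.284, 0.526 and 0.399 in LPS, 12.0, 8.38 and 9.14 in Sema, and 11.3, 8.54 and 7.56 in Ctrl cultures. The cultures with LPS all stood below 1 CPM and those without all stood above 7. The log2 fold change was -4.50 ± 0.24 (adjusted p = 2.31e-09) in LPS against Ctrl, a level 22.6-fold lower, and it was -3.83 with assignment by ratio. GALNT2 fell by 0.62 ± 0.06 on the log2 scale.

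Several falling genes lie beside a coding gene that also fell. LINC02642, on chromosome 10, lies 34.1 kb upstream of SFMBT2, a Polycomb protein gene, on the same strand. It had 1.42, 0.905 and 1.25 CPM in LPS, against 6.93, 6.05 and 6.13 CPM in Ctrl cultures, a log2 fold change of -2.41 ± 0.15. SFMBT2 fell by 2.07 ± 0.08. LINC01229 lies 75.4 kb from the start of MAF, a transcription factor of resident macrophages, on the opposite strand. LINC01229 had 0.768, 0.438 and 0.825 CPM in LPS, against 2.70, 3.50 and 3.18 CPM in Ctrl cultures, a log2 fold change of -2.19 ± 0.22. MAF had 116, 129 and 108 CPM in LPS, against 320, 332 and 294 CPM in Ctrl cultures, and fell by 1.42 ± 0.08. LINC02611, on the same strand as KIAA1211L and 20.9 kb downstream, fell by 1.67 ± 0.11, and KIAA1211L fell by 2.06 ± 0.21. LINC02035, 5.80 kb downstream of SLC49A4, fell by 1.71 ± 0.14, and SLC49A4 fell by 1.22 ± 0.09; reads running past the end of the coding gene could be counted for the LINC gene at this distance.

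Other falls had no coding gene within 100 kb that passed the filter on low counts, or had one that moved little or the other way. LINC01645 (-2.66 ± 0.21), LINC01139 (-1.94 ± 0.22) and LINC00920 (-1.92 ± 0.18) had none. LINC02785 had -1.59 ± 0.36, and SLC25A24, 58.0 kb away, fell by 0.14 ± 0.03 on the log2 scale. LINC01504 had -1.85 ± 0.15 while ZFAND5, 8.22 kb away, rose by 0.46 ± 0.05. LINC00205 starts 0.152 kb from POFUT2, which encodes an enzyme that adds fucose to proteins, on the opposite strand. It fell by 1.52 ± 0.13, to 1.29 ± 0.195 CPM in LPS, against 3.72 ± 0.129 CPM in Ctrl cultures (SD, n = 3 each). POFUT2 had a log2 fold change of 0.04 ± 0.11 (adjusted p = 0.778). LINC00324, 0.778 kb downstream of CTC1, had -1.49 ± 0.22 while CTC1 rose by 0.40 ± 0.13.

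The most abundant LINC genes changed by less than 2-fold, except LINC02605. LINC01235, on the minus strand of chromosome 9 from 13406380 to 13433053, was the highest of all. It had 95.7, 100.5 and 100.6 CPM in LPS, against 168.7, 172.0 and 159.6 CPM in Ctrl cultures, without overlap, and fell by 0.75 ± 0.05 on the log2 scale. LINC01578, known as CHASERR, ends 0.488 kb upstream of CHD2, a chromatin remodeller gene that it restrains in mouse and human cells. It had 115.7, 115.0 and 103.3 CPM in LPS, against 76.2, 78.0 and 75.9 CPM in Ctrl cultures, and rose by 0.54 ± 0.05. CHD2 rose by 0.28 ± 0.04. LINC01094 had -0.63 ± 0.09, LINC00963 -0.77 ± 0.10, LINC00342 -0.54 ± 0.05 and LINC00467 -0.32 ± 0.05, while LINC00662 rose by 0.58 ± 0.06 and LINC00623 by 0.33 ± 0.05. LINC01184 rose by 0.13 ± 0.05 (adjusted p = 0.0450), and this call was lost when 1 culture was left out in 10 of 12 cases, with adjusted p up to 0.184. The call was also lost with DESeq2, without the filter on low counts, in each library alone and with assignment by ratio. It held in 5 of 20 alternatives.

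Positions were read from GENCODE v29, which held all 229 genes. Of these, 192 had the biotype lincRNA, 17 antisense, 15 processed transcript, 3 protein coding and 2 bidirectional promoter lncRNA. The median distance to the nearest protein-coding gene was 12614 bases, 100 genes had one within 10 kb and 194 within 100 kb. In 68 genes the nearest coding gene was divergent, meaning that it lay upstream on the opposite strand, at any distance. In 25 of the 229 genes a coding start on the opposite strand lay within 2 kb, and 50 overlapped another gene on their own strand. Of the 24 tested genes with a coding start this close, 3 rose and 9 fell, and of the other 204, 35 rose and 81 fell.

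The LPS responses of LINC genes and their nearest coding genes were set side by side in the 158 pairs within 100 kb in which both were tested. Both passed the test in 70 pairs, and in 49 of these they moved the same way. Across these 158 pairs, which share libraries, Spearman's rho was 0.403 as a description. Of 28 LINC genes in these pairs that rose, the neighbour rose in 16 and fell in 6. Of 62 that fell, the neighbour fell in 33 and rose in 15. Over all genes tested, 30.3% rose and 29% fell. The agreement between other adjacent genes was not measured, so this agreement cannot be called particular to LINC genes. The 47 divergent pairs, taken at up to 100 kb and not only where starts lie close, had rho 0.569, with 19 of 24 called pairs in the same direction. In the 101 pairs without an overlapping gene on the same strand or a coding gene ending within 10 kb upstream, 28 of 42 called pairs moved the same way. Over 100 kb apart, 7 of 9 did.

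**Figure D3:**
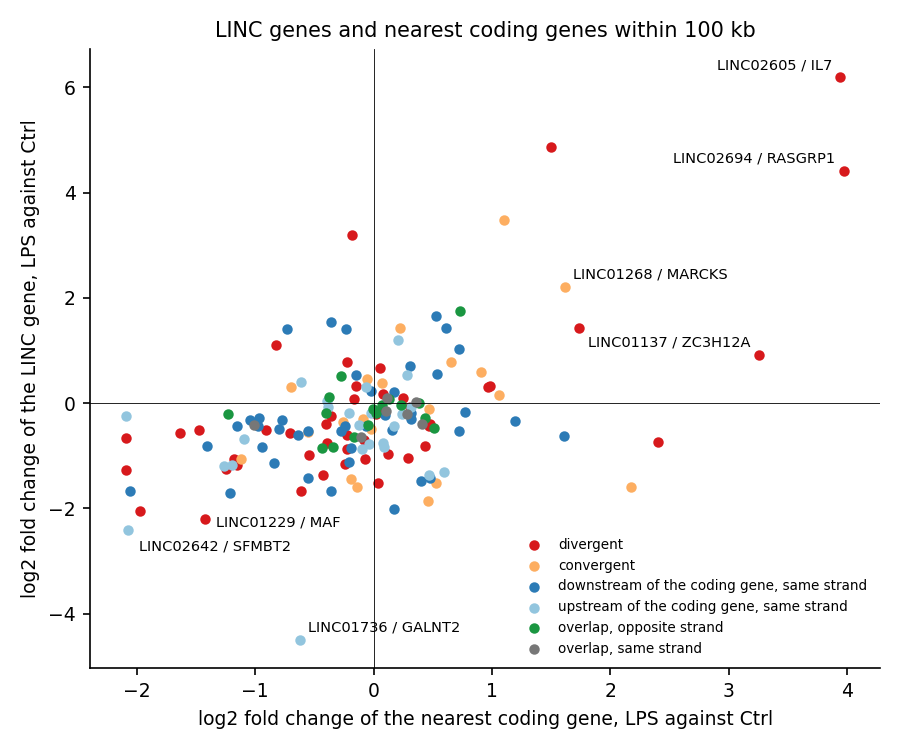
Log2 fold change in LPS against Ctrl cultures of each LINC gene (vertical axis) and of its nearest protein-coding gene within 100 kb (horizontal axis), coloured by their arrangement (n = 158 pairs). LINC02605 with IL7 stands at the upper right, and LINC02642 with SFMBT2 at the lower left.

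LINC01137, chosen after its values were seen, is antisense and starts 141 bases from ZC3H12A, which encodes Regnase-1, an RNase that degrades cytokine mRNAs. LINC01137 had 11.6, 12.4 and 10.1 CPM in LPS, against 5.34, 5.86 and 6.79 CPM in Ctrl cultures, and rose by 0.92 ± 0.10. ZC3H12A rose by 3.25 ± 0.08, with 94.5, 101.5 and 88.6 CPM in LPS against 9.64, 11.0 and 9.20 CPM in Ctrl cultures.

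The share of cells with a UMI was taken after thinning each cell to 10000 UMIs, which left out 17 to 58 cells per culture. LINC02605 was found in 28.6% ± 2.95 of cells in SemaLPS, 27.9% ± 2.73 in LPS, 0.80% ± 0.270 in Sema and 0.711% ± 0.182 in Ctrl cultures (SD, n = 3 each). Unthinned, it was found in 47.5 to 53.6% of cells in LPS and 1.32 to 2.07% in Ctrl cultures. LINC01268 was found in 12.2% ± 1.57 of thinned cells in LPS and 3.33% ± 1.25 in Ctrl cultures. LINC01736 was found in 0.373% ± 0.138 in LPS and 8.34% ± 1.59 in Ctrl cultures. LINC01235 was found in 52.7% ± 0.450 in LPS and 74.5% ± 2.03 in Ctrl cultures (SD, n = 3 each). For these 4 genes the LPS and Ctrl ranges did not overlap. No other cell type that should lack these RNAs was captured, so background in droplets was not measured apart from the Ctrl level. With 3 against 3 cultures an exact two-sided permutation test cannot go below 0.10, and none was run on shares.

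The observed share of cells with a UMI was set against the share that an even spread over the same cells and depths gives. The ratio lies near 1 for any gene with few UMIs per cell, however its cells differ, so it was read only where it was low. It was under 0.8 in 9 of the 229 genes. LINC02244 was the least even, found in 7.01% of cells where an even spread gives 16.5%, with up to 51 UMIs in 1 cell. Next came LINC01088 with a ratio of 0.508, LINC01010 with 0.613, LINC02345 with 0.674 and LINC02605 with 0.718.

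The same LPS contrast was made between cultures that all carried the inhibitor. In SemaLPS against Sema cultures, 32 LINC genes rose and 94 fell, where 61.2% of all genes were called, by the same test; 31.0% of all genes rose and 30.2% fell. By more than 2-fold, 16 LINC genes rose and 46 fell, where 6.28% of all genes rose and 8.73% fell by as much. The cultures did not overlap in 140 genes (61.4%), where the share of all genes was 66.9%. The median log2 fold change was -0.38 for the LINC genes, also with LINC02733 at its bound, and -0.02 for all genes. Of the 128 genes called without the inhibitor and the 126 called with it, 108 were called in both, which is 84.4% and 85.7%, and each of these moved the same way, 30 up and 78 down. Over all 15065 genes the shares were 89.4% and 86.6%, with 7988 of 7990 in the same direction. The 2 contrasts share no cultures, and Spearman's rho over the 228 genes was 0.896 as a description, against 0.918 over all genes. LINC02605 rose by 5.82 ± 0.18, or 4.88 with assignment by ratio, LINC02694 by 4.44 ± 0.37, or 3.62 in library 1 and 5.12 in library 2, and LINC00158 by 4.21 ± 0.23, and LINC01736 had -4.32 ± 0.22. LINC00926 (1.66 ± 0.14), LINC00877 (1.58 ± 0.20), LINC00891 (-2.52 ± 0.36) and LINC01374 (-1.63 ± 0.15) were also among the 12 largest rises or falls here. LINC00891, with 21 UMIs in SemaLPS and 124 in Sema cultures, reached the UMI limit only through the conditions without LPS. It therefore had to be high there to be described at all. LINC02733 had 22, 16 and 15 UMIs in SemaLPS cultures and 0 UMIs in each Sema culture. Against a floor set at 3 UMIs over the Sema cultures it was at least 15.5-fold higher. LINC02733 reached the UMI limit only through the conditions with LPS, so it too had to be high there to be described.

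**Figure D4:**
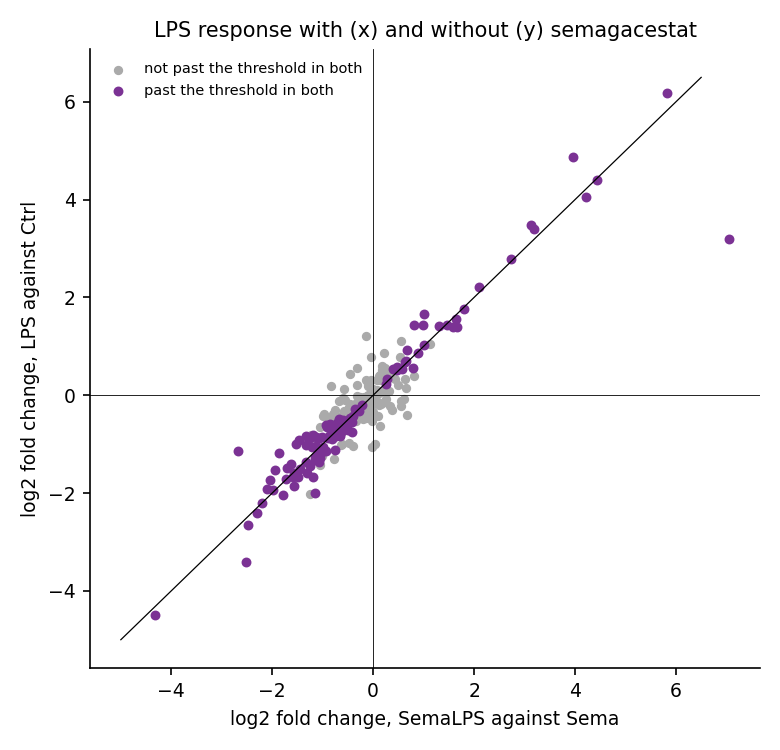
Log2 fold change of each LINC gene in LPS against Ctrl (vertical axis) and in SemaLPS against Sema cultures (horizontal axis), with the line of equality (n = 228). Purple points passed the threshold in both contrasts (108), and the point at the far right is LINC02733, whose fitted value rests on 0 UMIs in Sema cultures.

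The difference between these responses was tested as the interaction of inhibitor and LPS. No LINC gene passed, where 0.0% of all genes did, and 8 had an unadjusted p under 0.05. In edgeR with the replicate block 0 passed, where 0.0664% of all genes did, and 14 had an unadjusted p under 0.05. The median standard error of the interaction was 0.333 without the block and 0.322 with it. DESeq2 gave 0, with 3 at an unadjusted p under 0.05. Without the block, the lowest unadjusted p, 0.000863, belonged to LINC02693, with an interaction of -0.88 on the log2 scale.

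Semagacestat without LPS changed no LINC gene at the threshold. In Sema against Ctrl cultures 0 of 228 passed, where 0.0133% of all genes did, 16 had an unadjusted p under 0.05, and DESeq2 gave 0 among the 174 to which it gave an adjusted p. With the culture number as a replicate block 3 rose, where 3.42% of all genes were called, 1.85% higher and 1.57% lower. These were LINC02693, by 0.74 ± 0.16 (adjusted p = 0.0215), LINC01515, by 0.43 ± 0.11 (adjusted p = 0.0413), and LINC01857, by 0.33 ± 0.07 (adjusted p = 0.0246), in edgeR with the block. These 3 genes were chosen after their values were seen. LINC02693 is annotated as protein coding in GENCODE v29. It had 1.66, 1.64 and 1.71 CPM in Sema, against 0.961, 1.08 and 0.982 CPM in Ctrl cultures, without overlap. With LPS present it had 1.48, 1.44 and 1.07 CPM in SemaLPS and 1.54, 1.52 and 1.41 CPM in LPS cultures, which overlap. LINC01515 had 4.63, 4.37 and 4.78 CPM in Sema, against 3.09, 4.02 and 3.18 CPM in Ctrl cultures, and LINC01857 had 7.17, 9.17 and 9.77 CPM in Sema, against 6.60, 7.12 and 7.11 CPM in Ctrl cultures. Neither overlapped, and without the block none of the 3 passed, with adjusted p of 0.277, 0.558 and 0.610. The cultures did not overlap in 21 of 228 genes (9.21%), where the share of all genes was 13.4%.

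Semagacestat with LPS gave the same count. In SemaLPS against LPS cultures 0 of 228 passed, where 0.0133% of all genes did, 10 had an unadjusted p under 0.05, and the fit with the block gave 0, where 2.1% of all genes were called. DESeq2 gave an adjusted p to 12 of the 228 and called 0. The cultures did not overlap in 24 genes (10.5%), where the share of all genes was 9.56%. For 9 of the 10 most abundant LINC genes the log2 fold change lay between -0.11 and 0.13, with 95% intervals between -0.33 and 0.23. For the same 9 genes in Sema against Ctrl cultures it lay between -0.12 and 0.11, with intervals from -0.34 to 0.29. LINC01235 had 91.5, 89.4 and 98.2 CPM in SemaLPS, against 95.7, 100.5 and 100.6 CPM in LPS cultures, and 151.3, 153.6 and 162.0 CPM in Sema, against 168.7, 172.0 and 159.6 CPM in Ctrl cultures. Both pairs of groups overlap. LINC02605, the remaining gene, had 0.44 in Sema against Ctrl, with an interval from -0.30 to 1.18, on 106 UMIs in Sema and 63 in Ctrl cultures. Over all 228 genes, the interval lay within 2-fold either way for 175 without LPS and 167 with it, and within 1.2-fold for 21 and 18. For the other genes the interval does not exclude a change of 2-fold. All these intervals are from the fit without the block, which ignores the pairing of cultures by number. The median standard error over the 228 genes was 0.2301 without the block and 0.2117 with it in Sema against Ctrl. In SemaLPS against LPS it was 0.2346 without the block and 0.2266 with it.

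**Figure D5:**
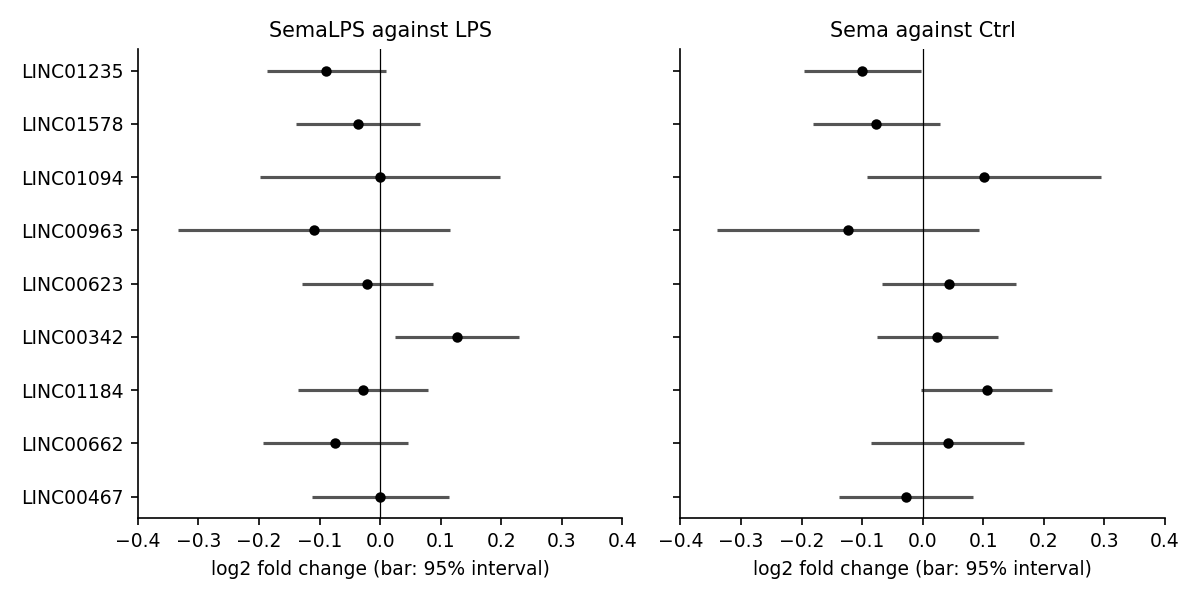
Log2 fold change by semagacestat of 9 of the 10 most abundant LINC genes, with 95% intervals, with LPS (left, SemaLPS against LPS) and without it (right, Sema against Ctrl). Values are from the fit without the replicate block. None passed the threshold, and the point estimates lie between -0.12 and 0.13; LINC02605 was left out because of its low level without LPS.

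Of a list of 38 other long noncoding RNAs, 37 were tested. In LPS against Ctrl cultures 13 rose and 10 fell, where 59.3% of all genes were called, with a median log2 fold change of 0.03 for the list. In SemaLPS against Sema cultures 16 rose and 11 fell, where 61.2% of all genes were called. MIR3945HG had 6.43 ± 0.774 CPM in LPS and 0.110 ± 0.0613 CPM in Ctrl cultures, and rose by 5.82 ± 0.22. SNHG15, a host of small nucleolar RNAs, rose by 1.94 ± 0.11, LUCAT1, an RNA induced by stress and Toll-like receptors, rose by 2.33 ± 0.13, and SNHG16 rose by 0.78 ± 0.06. CYTOR had 34.2 ± 0.760 CPM in LPS and 67.4 ± 0.820 CPM in Ctrl cultures (SD, n = 3 each) and fell by 0.98 ± 0.06. In Sema against Ctrl and in SemaLPS against LPS cultures none of the 37 passed, with 5 and 2 at an unadjusted p under 0.05. With the block, 1 rose and 4 fell in Sema against Ctrl, where 3.42% of all genes were called, and 1 rose in SemaLPS against LPS, where 2.1% were.

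LINC levels were also set side by side between dividing and other cells of the same culture, with no test. Dividing cells were those with at least 3 of the 8 markers of division. Of the 228 genes, 7 were higher in dividing cells in 12 of 12 cultures, where 17.9% of all genes were, and 10 were lower, where 7.41% of all genes were. A gene with few UMIs reaches 12 of 12 cultures less readily, and these shares were not matched for level. LINC02321 had 1.09 ± 0.412 CPM in dividing cells and 0.223 ± 0.0966 CPM in the others (SD over 12 cultures). LINC01572 had 4.17 ± 0.795 CPM in dividing cells and 1.86 ± 0.672 CPM in the others. LINC01010 had 3.27 ± 1.91 CPM in dividing cells and 6.10 ± 1.62 CPM in the others. Dividing cells were deeper in every culture, with medians of 30864.5 to 38062.5 UMIs, against 25764 to 30194 UMIs in the others. Cells over 10% mitochondrial UMIs entered the comparisons between conditions only in the alternative without this limit. In them, 53 LINC genes were higher than in kept cells in 12 of 12 cultures, where 27.5% of all genes were. There 2 were lower, LINC01235 and LINC01357, where 9.61% of all genes were.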

How the data were processed

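UMI counts were deposited for each gene and each hashtag, cell barcode by cell barcode, with no normalization by the authors, per the file headers. Those headers give Cell Ranger 6.0.1, whereas the submitters' processing notes list Cell Ranger 3.0.2, Seurat 4.1.1 and the build hg38. Neither the annotation release nor the use of strand in counting is given in the sources used here. Hashtag counts assigned barcodes to the 12 cultures in the manner of HTODemux. Centred log ratios were grouped by k-means into 13 clusters (scikit-learn 1.9.0), the top 0.5% of the background was left out, and the threshold was its 99th percentile under a negative binomial. Of 28943 barcodes, 21753 carried 1 hashtag, 6712 (23.2%) carried more and were left out as doublets, and 478 carried none. Kept cells had 1000 or more genes and no more than 10% mitochondrial UMIs; 20.3 to 39.1% of a culture's cells were over this limit. No cell classes were clustered.

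Sums per culture were tested by edgeR 4.0.16 under R 4.3.3 with TMM scaling, filterByExpr and the quasi-likelihood F test. All 12 cultures entered 1 model, and p-values were Benjamini-Hochberg adjusted over 15065 genes. The code was tested on simulated data. CPM values of whole cultures are scaled by TMM unless said otherwise. Those that set dividing against other cells, or cells over the mitochondrial limit against kept cells, are not scaled by TMM. The error after ± beside a log2 fold change is a standard error taken from the F statistic, an approximation. Same-numbered cultures deviated together over 5282 genes with at least 20 CPM (correlations of 0.445 to 0.748, against -0.567 to 0.170 between other numbers), so the number pairs the cultures; the labels do not say what it marks. Alternatives were DESeq2 1.42.0, other size factors, no filter on low counts, the block, each library alone, no mitochondrial limit, assignment by a ratio of 3 between the highest hashtags, and leaving out each culture. Positions come from GENCODE v29 (GRCh38) and promoters from RefSeq (GRCh38.p14).

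Named are, per comparison, up to 12 rises and 12 falls past the threshold with at least 1 CPM in the higher group, the 10 most abundant genes, those at the 200 UMI limit, the nearest coding gene within 100 kb, and up to 5 genes of a list of 38 other long noncoding RNAs. The genes and lists were chosen with earlier results of these data known. LINC01137, LINC02733, LINC01888, LINC02693, LINC01515, LINC01857, LINC02244, LINC02185, LINC01010, LINC01088, LINC02345, LINC02321, LINC01572, LINC01357, LINC01814 and LINC01301 are named beyond this rule, after their values were seen, as is MARCKS beside LINC02541.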

Additional observations from a re-analysis of the deposited data

Results flagged for a closer look

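Cells with more than 10% mitochondrial UMIs were left out of the comparisons between conditions, except in the alternative without the mitochondrial limit. LINC02244 and LINC02185 were more than 3 times as high in them as in the kept cells, as a share of UMIs of genes not encoded in mitochondria. LINC02244 had 24.3 ± 9.36 CPM in the cells over the limit and 6.65 ± 2.48 CPM in kept cells (SD over 12 cultures), which is 3.66 times as much, and it was higher in 12 of 12 cultures. LINC02185 had 1.68 ± 0.959 CPM in the cells over the limit and 0.511 ± 0.387 CPM in kept cells, which is 3.29 times as much, also in 12 of 12 cultures, on 244 and 202 UMIs. Cells over the limit had median depths of 19723 to 24683 UMIs. No test was made, since these cells are not a condition.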

How the results depend on the processing

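The counts of LINC genes past the threshold stayed within 1.5 times the values given, under every alternative run, except for Sema against Ctrl with the replicate block, which gave 3 in place of 0. With 1 culture left out, 108 to 128 passed in LPS against Ctrl, 106 to 127 in SemaLPS against Sema, and 0 in the other contrasts. No direction of a called gene reversed among the named genes; those that reversed were near 0 and uncalled. In Sema against Ctrl these were LINC02605 (-0.043) and LINC00623 (-0.016) in library 1 alone, LINC00342 (-0.029) in library 2 alone, and LINC00467 (-0.050 to 0.011 with 1 culture left out). In SemaLPS against LPS, LINC01094 had -0.0018 with other size factors, -0.0020 with DESeq2, -0.060 in library 2 alone, -0.0065 with assignment by ratio and -0.092 to 0.054 with 1 culture left out. LINC00623 had 0.020 in library 1 alone, and LINC00467 had 0.0076 without a filter, 0.034 in library 1 alone and 0.0073 with assignment by ratio. With 1 culture left out, LINC00467 ranged from -0.026 to 0.031, LINC00623 from -0.063 to 0.024, LINC00963 from -0.20 to 0.0026, LINC01578 from -0.087 to 0.0021 and LINC02605 from -0.028 to 0.19. In SemaLPS against Sema, LINC01184 had 0.035 in library 1 alone, 0.024 without the mitochondrial limit, 0.0051 with assignment by ratio and -0.052 to 0.013 with 1 culture left out. Without thinning, shares of cells were higher: LINC02605 50.7% in LPS and 1.81% in Ctrl, LINC01268 27.2% in LPS and 8.44% in Ctrl, LINC01736 1.18% in LPS and 18.0% in Ctrl, and LINC01235 79.3% in LPS and 90.3% in Ctrl. The LINC01235 share in LPS was 50.5% without the mitochondrial limit, 53.4% in library 1 and 51.9% in library 2, and in Ctrl 71.7% without the limit. The folds of LINC02605, LINC02694, LINC01215, LINC02541 and LINC01736 that moved by over 1.5 times are given beside their values. In SemaLPS against Sema so did LINC01215 (3.13, and 3.72 without culture 2 of Sema) and LINC01931 (2.73, with 2.03 in library 1 and 3.85 in library 2). The cause of these differences was not tested. DESeq2 called 31 rises and 72 falls in LPS against Ctrl, and 29 and 73 in SemaLPS against Sema. The replicate block moved no other count of LINC genes by over 1.5 times: it gave 38 rises and 95 falls in LPS against Ctrl and 33 rises and 102 falls in SemaLPS against Sema.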

Other observations

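The LINC genes made up a larger share of non-mitochondrial UMIs in cells over the mitochondrial limit than in kept cells in 12 of 12 cultures, with 1050 to 1387 CPM in the cells over the limit and 866.5 to 1217 CPM in kept cells. LINC01010 had 13.4 ± 2.70 CPM in these cells and 5.79 ± 1.76 CPM in kept cells (SD over 12 cultures). LINC01814, which lies 85.9 kb from ID2, had 1.65 ± 1.00 CPM in these cells and 0.814 ± 0.440 CPM in kept cells. LINC01235, the most abundant LINC gene, was lower in them, with 120.6 ± 46.3 CPM in the cells over the limit and 142.8 ± 48.4 CPM in kept cells.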
